A study of Mus musculus with 4 samples.

Results

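Variable segments of the immunoglobulin kappa light chain (Igkv genes) were examined in bulk RNA-seq of mouse alveolar macrophages, the resident phagocytes of the air sacs. The segments were all rows of the deposited table whose gene name starts with Igkv, which gave 77 of 16755 genes. The first number of the name gives the family, and the 77 segments fell into 16 families. There were 2 libraries from wild-type (WT) C57BL6 mice and 2 from osteopontin knock-out mice (OPNKO, Spp1-/-), which lack the secreted glycoprotein encoded by Spp1. All 4 libraries carry a bleomycin tag, an agent that injures the lung, and the deposited columns name day 14, whereas their treatment protocol states that no treatment was given. Cells had been sorted from the lung by surface markers, and no age, allele or pooling of animals is given in the sources used here. They are 4 of 10 stranded mRNA libraries that were run together on one lane. Groups follow the titles, because title and genotype tag disagreed for 2 of the 4 samples. Spp1 went with the titles, at 545719 and 606517 normalized reads in WT against 4106 and 3847 in OPNKO. The labels do not tie replicates to separate mice, and every p-value is thus set against library-to-library spread, which may be technical.

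A kappa light chain is made when a developing B cell joins 1 variable segment to 1 joining (Igkj) segment, and the transcript is then spliced to the single constant region, Igkc. Each B cell or plasma cell normally keeps 1 such rearrangement, so a mixture of cells shows a mixture of segments. The segment supplies most of the antigen-binding domain of the chain, and its 3′ end supplies the first part of the third hypervariable loop. B cells carry modest amounts of the rearranged transcript, whereas plasma cells, the antibody-secreting descendants of B cells, carry very large amounts.

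The 3′ ends of 9 segments show what separates the transcripts described here. They are the last 120 bases of the GENCODE M21 transcript on GRCm38, chromosome 6, written 5′ to 3′ on the strand of the gene. Capitals mark the Tyr-Tyr-Cys or Tyr-Phe-Cys codons that close the third framework region, and the 23 bases after them are the germline start of the third hypervariable loop. The first pair, Igkv10-96 (chr6:68631963-68632082, minus strand) and Igkv10-94 (chr6:68704508-68704627, minus strand), contains the segment with the most reads in both WT libraries.
Igkv10-96: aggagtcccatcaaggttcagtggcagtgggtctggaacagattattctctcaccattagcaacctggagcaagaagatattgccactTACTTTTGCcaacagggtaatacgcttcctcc
Igkv10-94: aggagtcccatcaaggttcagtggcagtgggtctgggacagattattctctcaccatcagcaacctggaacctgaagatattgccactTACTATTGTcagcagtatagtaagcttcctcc
The next 4 had the most reads when both OPNKO libraries were pooled, although Igkv1-135 was not among the top 4 of OPNKO replicate 2, and were chosen after their values were seen. They are Igkv1-110 (chr6:68271148-68271267, plus strand), Igkv1-117 (chr6:68121708-68121827, plus strand), Igkv1-135 (chr6:67610389-67610508, plus strand) and Igkv8-30 (chr6:70117061-70117180, minus strand).
Igkv1-110: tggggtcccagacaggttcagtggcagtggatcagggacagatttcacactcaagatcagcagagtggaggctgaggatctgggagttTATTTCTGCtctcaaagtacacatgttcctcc
Igkv1-117: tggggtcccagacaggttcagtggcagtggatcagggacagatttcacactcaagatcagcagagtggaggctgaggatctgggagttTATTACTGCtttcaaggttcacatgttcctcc
Igkv1-135: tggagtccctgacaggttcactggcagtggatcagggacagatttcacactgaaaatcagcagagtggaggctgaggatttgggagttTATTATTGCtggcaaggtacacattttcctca
Igkv8-30: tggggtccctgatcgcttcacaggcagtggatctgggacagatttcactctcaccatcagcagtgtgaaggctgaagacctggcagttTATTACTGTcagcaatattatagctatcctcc
The last 3 had the greatest fold changes past the threshold with any OPNKO read. They are Igkv14-100 (chr6:68519358-68519477, plus strand), Igkv6-14 (chr6:70434952-70435071, minus strand) and Igkv5-48 (chr6:69726573-69726692, minus strand).
Igkv14-100: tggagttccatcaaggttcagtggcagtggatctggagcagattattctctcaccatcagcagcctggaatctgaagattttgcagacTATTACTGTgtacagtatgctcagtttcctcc
Igkv6-14: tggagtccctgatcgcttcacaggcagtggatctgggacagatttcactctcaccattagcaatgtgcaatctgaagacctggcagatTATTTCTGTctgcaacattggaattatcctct
Igkv5-48: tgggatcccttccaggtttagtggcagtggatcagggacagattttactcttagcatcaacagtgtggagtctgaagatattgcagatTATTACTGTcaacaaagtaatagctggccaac
Over their last 280 bases, Igkv1-110 and Igkv1-117 were 96.8% identical and Igkv10-94 and Igkv10-96 were 94.3% identical. Igkv1-135 was 80.0% identical to Igkv1-110, and Igkv8-30 was 70.1% identical to it.

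Such likeness limits what a count of 1 segment means. Of the 77 segments, 74 had an identifier that carries the same symbol in GENCODE M21, and these were annotated as V genes, none as pseudogenes, on chromosome 6 between 67555497 and 70704177 (GRCm38). The constant region Igkc lies just beyond them, from 70726435 to 70726966. The identifiers of Igkv2-109 and Igkv2-116 had no match, and that of Igkv19-93 carries another symbol there, so position and sequence were not used for these 3. Measured over the last 280 bases, the nearest other kappa V segment was a median of 95% identical, with a range of 74.0% to 98.9%. A median of 72.3% of the 50-base stretches of a segment occurred in no other annotated kappa V transcript, and for 14 segments this share was under 50%. Reads can therefore be split between close copies, or left uncounted where they match several. Single segments are thus uncertain, Igkv1-110 (49.1% unique) and Igkv1-117 (50.1% unique) among them. Sums over families are less affected by such splitting, but any reads left uncounted would be missing from sums and shares too.

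The comparison between genotypes asked how far kappa variable transcripts differed in the sorted cells of OPNKO mice. The summed level of the 77 segments was 8739 and 10799.7 normalized reads in the WT libraries and 1933 and 1651 in the OPNKO libraries. Normalized reads are the deposited values, which are read counts divided by a size factor per library. The WT mean was 9769.6 ± 1457 (SD, n = 2). The OPNKO mean was 1792 ± 199 (SD, n = 2), which is 18.3% of the WT level or 5.45-fold lower. Both OPNKO sums lay far below both WT sums, by more than the spread within either group. With 2 libraries a group, 0.333 is the smallest two-sided p an exact permutation test allows, and the sum was not tested. In these bulk libraries, fewer cells that carry the transcripts and less transcript per cell cannot be told apart.

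The sums rest on few reads. The segments held 7967 and 11066 reads in WT and 1693 and 1326 in OPNKO, out of 35793800 to 44759630 reads counted in genes per library. This was 0.0193% and 0.0247% of the counted reads in WT and 0.00423% and 0.00370% in OPNKO. At least 1 read was found for 75 segments in each WT library, and for 64 and 66 segments in the OPNKO libraries. At least 10 reads were found for 70 and 73 segments in WT but for 31 and 32 in OPNKO, so levels of single segments in OPNKO are often set by a handful of reads.

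**Figure D1:**
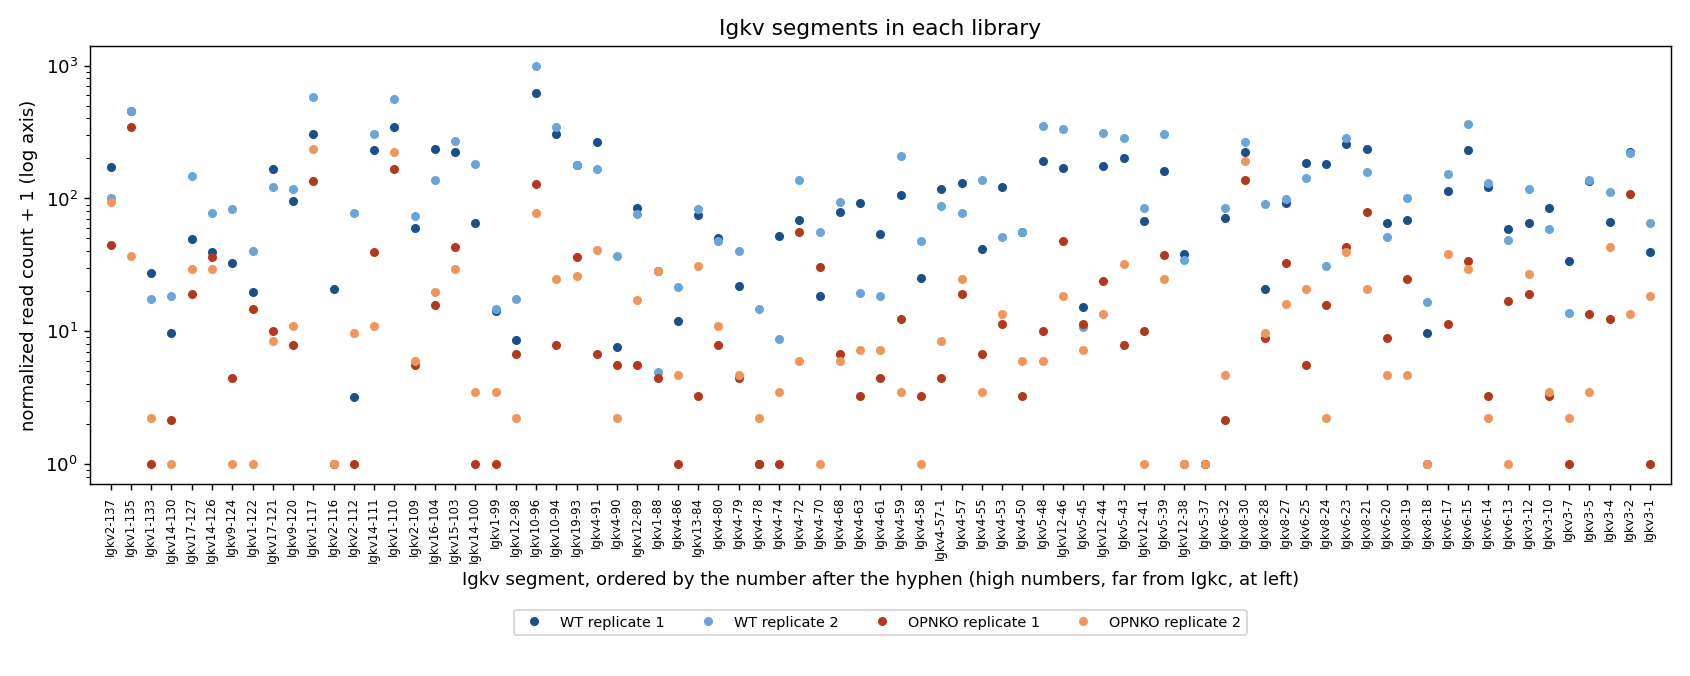
Each column is 1 of the 77 Igkv segments, ordered by the number after the hyphen, and each point is the normalized read count plus 1 of 1 library on a log axis. Both OPNKO points lie below both WT points in 70 of the 76 segments tested, while Igkv1-88 and Igkv5-45 are among those where they mix, and Igkv5-37 has no reads. The 76 include 7 that entered the test through their WT level alone.

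Per segment, 43 of the 76 segments tested were lower in OPNKO (limma on log2(value + 1), adjusted p under 0.05 over all genes) and 0 were higher. Among all 16431 genes tested, 1.98% were called lower and 2.33% higher. None of the 76 was higher at an unadjusted p under 0.05 either, and 67 were lower at that level. The segment Igkv5-37 had 0 reads in every library and was not tested, and 7 segments passed the filter on low values through the WT libraries alone, so their direction was given by the filter. Of these 7, 3 were among the calls (Igkv1-133, Igkv3-7 and Igkv12-38), which leaves 40 calls without them. The log2 fold changes ranged from -5.87 to -0.08 with a median of -2.99, beside a median of -0.00056 over all genes, while all 76 segments had a negative value. Both OPNKO values lay below both WT values in 70 segments, against 25% of all genes tested. The counts of 67, 76 and 70 were taken over all tested segments, with the 7 whose direction the filter gave among them. Other tests gave like counts of lower segments. These were 41 of 66 with edgeR on recovered reads (2.37% of all genes it tested were lower), 48 of 67 with DESeq2 on recovered reads (3.74%) and 32 of 77 in the authors' deposited table (1.61%). None of these tests called a segment higher, and 38 segments were called by limma, edgeR and DESeq2 alike. The edgeR filter asks for enough reads in 2 libraries, which the WT libraries alone can supply. At least 10 reads were found for 70 and 73 segments in WT and for 31 and 32 in OPNKO. For segments that entered edgeR through WT alone, the direction was given by the filter, and their number was not counted. Igkv12-38, with no OPNKO read, is among the 38.

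The counts of calls depended on single libraries, for the segments and for all genes. The limma count was 0 without WT replicate 1 and 0 without WT replicate 2, although 54 segments were lower at an unadjusted p under 0.05 in each case. Over all genes these fits called 4 of 16436 and 5 of 16349 lower. With edgeR on recovered reads, an alternative chosen after seeing the data, 50 and 41 segments were lower without these libraries. That count was 20 without OPNKO replicate 1 and 6 without OPNKO replicate 2, where limma gave 44 and 37. Over all genes the edgeR fits called 548 and 229 lower without WT replicates 1 and 2, and 139 and 41 lower without OPNKO replicates 1 and 2. The summed level was lower in OPNKO whichever library was left out, by 2.29 to 2.59 on the log2 scale.

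The 10 segments with the highest mean over the 4 libraries were lower in OPNKO by differing amounts, and 6 of them are given here. Igkv10-96 had 625 and 994 normalized reads in WT and 127 and 77.2 in OPNKO (log2 fold change -2.98 ± 0.29 SE, limma adjusted p = 0.00398). Per kilobase of annotated exon, the WT mean of Igkv10-96 was 2256 normalized reads, that of Igkv1-135 was 1149.7 and that of Igkv1-110 was 1123. The family partner of Igkv10-96, Igkv10-94, had 305 and 344 in WT and 6.85 and 23.7 in OPNKO (log2 fold change -4.54). Igkv6-15 had 233 and 364 in WT and 33.1 and 28.6 in OPNKO (-3.20). Igkv6-23 had 256 and 283 in WT and 42.2 and 38.6 in OPNKO (-2.71, limma adjusted p = 0.00214), so its replicates lay close together in both groups. Igkv14-111 had 229 and 303 in WT and 38.8 and 9.96 in OPNKO (-3.66). For Igkv12-46 the WT libraries differed more, at 168 and 333, and the OPNKO libraries had 46.8 and 17.4, which is 12.8% of the WT mean (limma adjusted p = 0.0233). In all 6 of these segments the groups did not overlap, and each passed the limma threshold. Of the 4 less reduced ones, given further on, Igkv1-110 passed (limma adjusted p = 0.0469) and Igkv1-117, Igkv1-135 and Igkv8-30 did not. Over all genes tested, 25% had both OPNKO values below both WT values and 1.98% were called lower.

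The greatest fold changes belonged to segments that nearly vanished in OPNKO. Igkv14-100 had 64.7 and 179.6 normalized reads in WT and 0 and 2.49 in OPNKO (log2 fold change -5.87 ± 0.78 SE, limma adjusted p = 0.0107). Igkv6-14 had 122 and 129 in WT and 2.28 and 1.24 in OPNKO (-5.54, limma adjusted p = 0.00221). Igkv5-48 had 189.8 and 349 in WT and 9.13 and 4.98 in OPNKO (-5.05). Fold changes of this size depend on the added 1, because the OPNKO values stand for 2 to 12 reads per segment over both libraries. Igkv6-32 had 70.2 and 83.9 in WT and 1.14 and 3.73 in OPNKO (-4.61). Igkv9-124 had 31.8 and 83.0 in WT and 3.42 and 0 in OPNKO (-4.64), and Igkv4-59 had 105 and 209 in WT and 11.4 and 2.49 in OPNKO (-4.50). All of them were picked from the called segments, so passing the threshold and the lack of overlap between groups are no further result. Igkv12-38 had 34 reads in each WT library and none in OPNKO, which is at least 19.7-fold lower when a floor of 3 reads is set for both OPNKO libraries together. Igkv8-18 had 24 reads in WT and none in OPNKO, at least 6.81-fold lower against the same floor, and did not pass (limma adjusted p = 0.0504). Both were named for 0 OPNKO reads and entered the test through their WT level alone, so their direction is no result. Floors and intervals cover counting error only.

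Of the 10 segments with the highest mean, 4 were much less reduced. Igkv14-126, at a lower level, was less reduced too. It had 38.4 and 76.1 normalized reads in WT and 35.4 and 28.6 in OPNKO, 55.9% of the WT mean (-0.75, limma adjusted p = 0.349). Igkv8-30 had 223 and 266 normalized reads in WT and 136 and 190.4 in OPNKO, 66.7% of the WT mean, and it did not pass (log2 fold change -0.60 ± 0.21 SE, limma adjusted p = 0.171). Igkv1-110 had 346 and 555 in WT and 166 and 223 in OPNKO (-1.19, limma adjusted p = 0.0469), a call that was lost with edgeR (adjusted p = 0.0534) and when any 1 library was left out (limma adjusted p = 0.0531 to 0.349). Its near copy Igkv1-117 had 305 and 584 in WT and 134 and 235 in OPNKO, 41.5% of the WT mean (limma adjusted p = 0.101). Igkv1-135 had 454 and 452 in WT, and in OPNKO it had 342 in replicate 1 and 36.1 in replicate 2 (-2.01, limma adjusted p = 0.239). The groups did not overlap for any of the 4 from the 10 highest, while 25% of all genes tested had both OPNKO values below both WT values. The size for Igkv1-135 moved with each OPNKO library. Without OPNKO replicate 1 the log2 fold change of Igkv1-135 was -3.61 and it passed (limma adjusted p = 0.00290), against -0.40 when OPNKO replicate 2 was left out (limma adjusted p = 0.207). Igkv4-72 was as uneven, with 68.0 and 136 in WT and 54.8 and 4.98 in OPNKO (-2.41, limma adjusted p = 0.204), and it passed without OPNKO replicate 1 (-4.02, limma adjusted p = 0.0233), while without OPNKO replicate 2 it was at -0.80.

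In 6 of the 76 segments the groups were not separated. Igkv1-88 had 27.4 and 3.90 in WT against 3.42 and 27.4 in OPNKO, the smallest fold change of all (-0.08). Igkv5-45 had 14.3 and 9.76 in WT and 10.3 and 6.22 in OPNKO (-0.51), and in 98.9% of its last 280 bases it matches Igkv5-43, which had 199.6 and 286 in WT against 6.85 and 31.1 in OPNKO (-3.92). The others were Igkv2-112, Igkv2-116, Igkv4-70 and Igkv4-78, in each of which at least 1 OPNKO library had no reads. Segments were also uneven between libraries of 1 genotype. The OPNKO libraries differed at least 5-fold, or had reads in 1 library alone, for 25 segments, and the WT libraries for 7. Spearman's correlation of read counts across the 77 segments was 0.82 within WT and 0.58 within OPNKO. These describe points that share a library, and the OPNKO counts are lower.

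By family, all 16 sums were lower in both OPNKO libraries than in both WT libraries, by unequal amounts. Igkv4, the family with the most segments (19), had sums of 1303 and 1313 in WT and 170.1 and 138 in OPNKO, which is 11.8% of the WT level. Of its segments, 11 were called lower, from Igkv4-57 (-2.20) to Igkv4-59 (-4.50), beside 1.98% of all genes tested. Igkv6 had sums of 1099 and 1252 in WT and 118 and 133 in OPNKO, or 10.7% of WT, with 7 of its 8 segments called. Igkv10, with 2 segments, was at 10.3% of WT, and Igkv5 and Igkv12 were at 8.52% and 9.80%. Igkv9 was lowest, with 127 and 200.1 in WT and 10.3 and 9.96 in OPNKO, or 6.18% of WT, and both of its segments were called. Igkv3 was at 18.8% and Igkv19, with 1 segment, at 17.1%, near the 18.3% of all segments together.

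**Figure D2:**
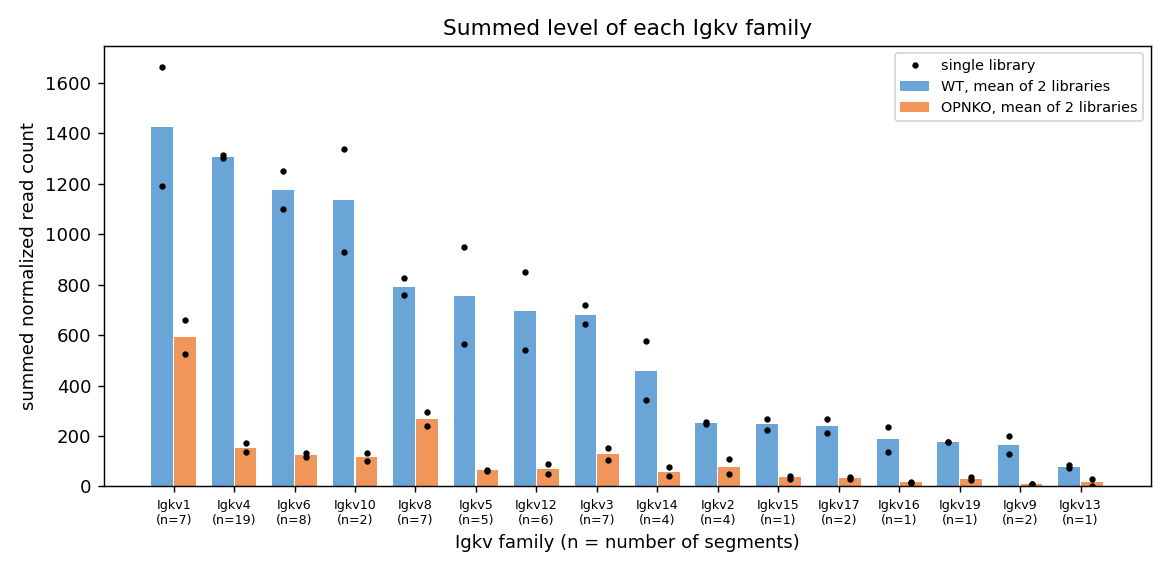
Bars give the mean summed normalized read count of each Igkv family in WT and OPNKO, and black points the single libraries. Igkv1 keeps 41.5% of its WT level and Igkv8 33.6%, while Igkv4, Igkv6 and Igkv10 keep 10.3% to 11.8%.

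Igkv1 and Igkv8 stood apart from this. Igkv1 had sums of 1190.2 and 1664 in WT and 659 and 525 in OPNKO, 41.5% of WT, and Igkv8 had 826 and 757 in WT and 293 and 239 in OPNKO, 33.6% of WT. Of the 7 tested segments in each, 2 passed in Igkv1 (Igkv1-110, and Igkv1-133, which entered the test through its WT level alone) and 1 in Igkv8 (Igkv8-27, -2.07). The level of Igkv1 rested on Igkv1-110, Igkv1-117 and Igkv1-135, at 41.5% to 43.1% of WT. Among its other segments, all at low levels, Igkv1-99, Igkv1-122 and Igkv1-133 were at 9.28%, 23.7% and 2.90%, and Igkv1-88 was at 98.3%. The rest of Igkv8 did not resemble its leading segment, for without Igkv8-30 the family's log2 ratio went from -1.57 to -2.41. Igkv2 was at 30.9% of WT, but its sums in OPNKO were 47.9 and 107, and without Igkv2-137 its log2 ratio went from -1.70 to -3.65. Igkv2-137 itself had 172 and 101 in WT and 43.4 and 93.4 in OPNKO (-1.04, limma adjusted p = 0.214). Igkv13, with the single segment Igkv13-84, had 74.6 and 83.0 in WT and 2.28 and 29.9 in OPNKO. Its log2 ratio of -2.29 became -5.11 without OPNKO replicate 2.

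**Figure D3:**
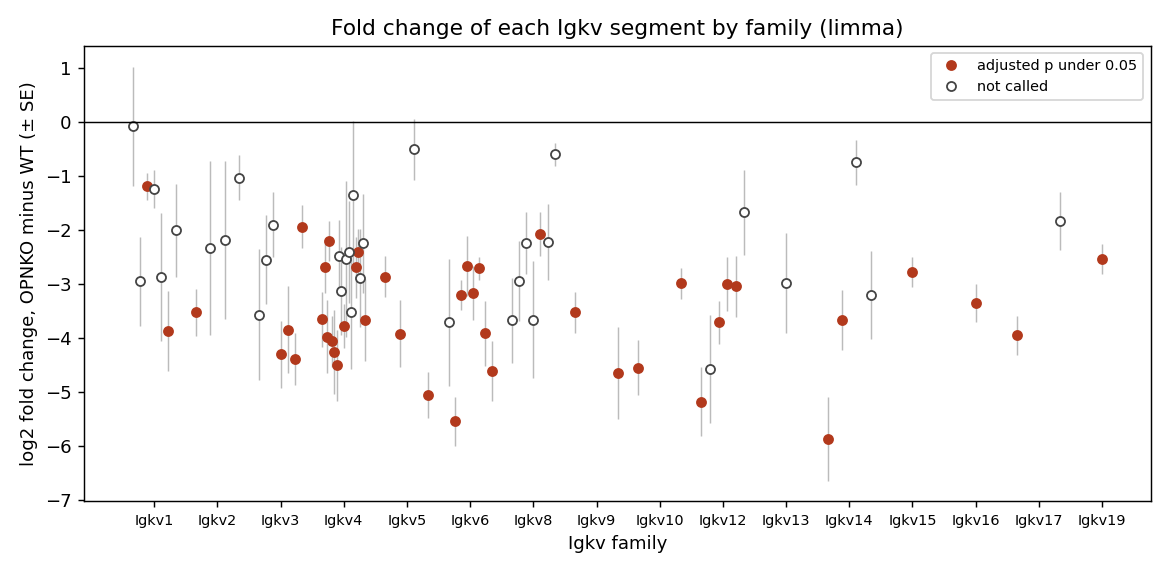
Each point is the log2 fold change of 1 of the 76 tested segments, OPNKO minus WT, with its standard error from limma, grouped by family along the x axis; filled points passed an adjusted p of 0.05. No point lies above 0, and the smallest changes are Igkv1-88 (-0.08), Igkv5-45 (-0.51) and Igkv8-30 (-0.60). For 7 of the 76 the direction was given by the filter.

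The make-up of the kappa reads differed between the genotypes as well as their number. Igkv1 held 13.6% (95% Wilson interval 12.9 to 14.4) and 15.4% (14.7 to 16.1) of all Igkv reads in the WT libraries. In OPNKO it held 34.1% (31.9 to 36.4) and 31.8% (29.4 to 34.4). Igkv8 went from 9.45% and 7.01% in WT to 15.2% and 14.5% in OPNKO. These were the 2 families whose share was higher in both OPNKO libraries than in both WT libraries. The share was lower in both OPNKO libraries for 10 families, for example Igkv4 (14.9% and 12.2% in WT, 8.80% and 8.37% in OPNKO) and Igkv10 (10.6% and 12.4% in WT, 6.91% and 6.11% in OPNKO). The 4 segments Igkv1-110, Igkv1-117, Igkv1-135 and Igkv8-30 together held 15.2% and 17.2% of Igkv reads in WT against 40.2% and 41.5% in OPNKO. The other 73 segments summed to 12.97% of their WT level, against 45.9% for these 4. Because the 4 were picked for this, the contrast is a description.

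**Figure D4:**
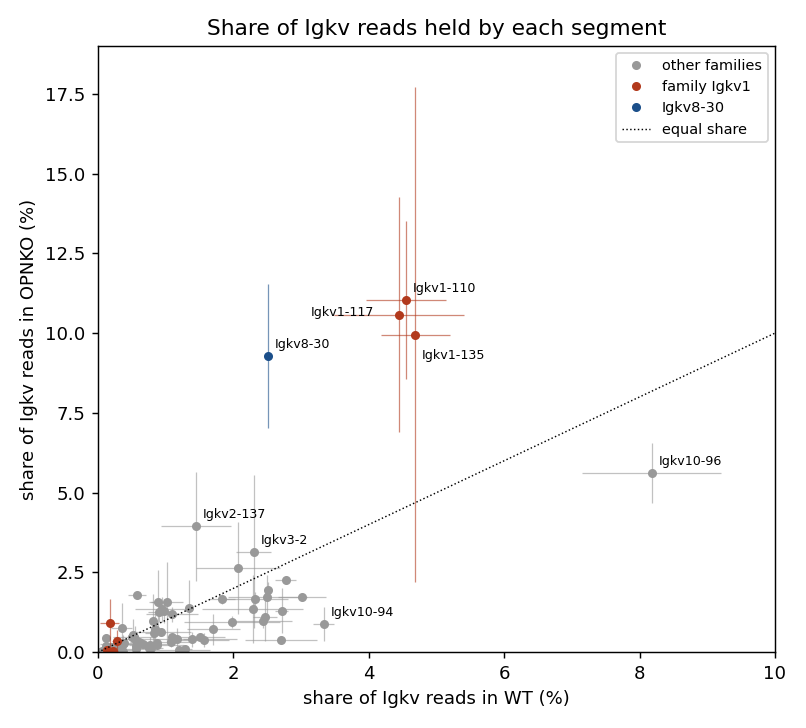
Each point is a segment's mean share of Igkv reads (%) in WT on the x axis and in OPNKO on the y axis, with lines joining the 2 libraries of each genotype and a dotted line of equal share. The points Igkv1-110, Igkv1-117, Igkv1-135 and Igkv8-30 stand above the dotted line, and Igkv1-135 spans 2.19% to 17.7% in OPNKO.

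Reads were spread over fewer segments in OPNKO. The effective number of segments, the exponential of the Shannon entropy of read shares, was 50.8 and 47.3 in WT against 27.3 and 27.8 in OPNKO. The fewest segments that together held 50% of the reads numbered 16 and 13 in WT and 6 in each OPNKO library. The top segment was Igkv10-96 in both WT libraries, with 7.15% and 9.21% of Igkv reads. It was Igkv1-135 in OPNKO replicate 1 (17.7%) and Igkv1-117 in OPNKO replicate 2 (14.3%), so the OPNKO libraries did not share their leading segment. An inverse Simpson index that is unbiased for the number of reads was 39.6 and 33.7 in WT and 15.8 and 15.7 in OPNKO. At the 1326 reads of the shallowest library, the expected number of segments seen was 72.6 and 72.5 in WT and 63.2 and 66 in OPNKO. At equal read numbers the count of segments was thus still lower in OPNKO, and the difference between genotypes exceeded the spread between libraries on each measure.

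**Figure D5:**
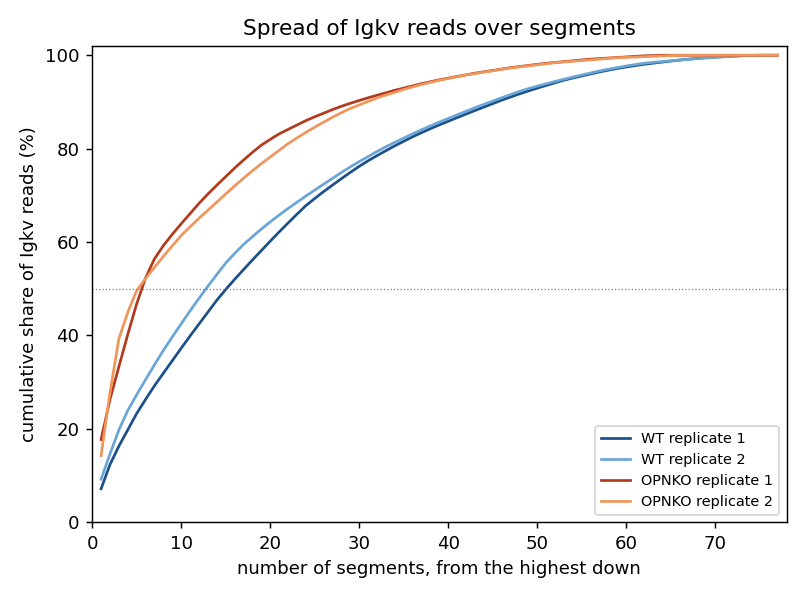
The lines give the cumulative share of Igkv reads (%) against the number of segments, counted from the one with the most reads, for each of the 4 libraries. The OPNKO lines pass 50% at 6 segments and the WT lines at 13 and 16.

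Levels were also summed by position in the locus. The number after the hyphen orders the segments from Igkc outwards. Segments numbered 1 to 45 summed to 17.2% of their WT level in OPNKO, those numbered 46 to 90 to 11.9% and those numbered 91 and above to 21.8%. The last group contains Igkv1-110, Igkv1-117 and Igkv1-135. Of the segments with a position, 45 lie on the minus strand, opposite to Igkc, and summed to 13.8% of WT, and 29 lie on the plus strand and summed to 25.2%. Without Igkv1, the 23 remaining segments on the plus strand were at 16.3%. Segments were last summed by their likeness to others. The 14 segments with under 50% unique 50-base stretches summed to 20.8% of WT, with 10 called lower, and the 60 others to 18.0%, with 31 called lower of 59 tested. Over all genes tested, 1.98% were called lower. The 31 include Igkv1-133, Igkv3-7 and Igkv12-38, which entered the test through their WT level alone.

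Other parts of the antibody transcripts were lower beside the segments. Igkc had 6442 and 8508 normalized reads in WT and 1314 and 1239.8 in OPNKO, 17.1% of WT (limma adjusted p = 4.07e-04). The ratio of the Igkv sum to Igkc was 1.36 and 1.27 in WT and 1.47 and 1.33 in OPNKO, so the segments and the constant region differed by like amounts. The 5 Igkj segments had sums of 229 and 289 in WT against 68.5 and 64.7 in OPNKO. The 81 heavy chain variable segments (Ighv) summed to 15.8% of WT, and the ratio of Igkv to Ighv was 1.19 and 1.13 in WT against 1.55 and 1.17 in OPNKO. The 3 lambda segments (Iglv) had sums of 918 and 1820.1 in WT against 196 and 163 in OPNKO. The ratio of Igkv to Iglv was 9.52 and 5.93 in WT and 9.84 and 10.1 in OPNKO, with WT replicate 2 apart from the rest.

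Of 9 immunoglobulin constant regions tested, 4 fell and 0 rose at the limma threshold, with a median log2 fold change of -1.44. For this and the lists that follow, the shares over all genes tested were 1.98% lower and 2.33% higher. The constant regions that fell are named first. They were Igkc (-2.54), the IgA chain Igha (-3.31), and the IgG chains Ighg2b (-1.84) and Ighg2c (-1.45). The IgM chain Ighm had 2279 and 3873 in WT and 2407 and 2202 in OPNKO (-0.37, limma adjusted p = 0.373). The lambda constant region Iglc2 had 99.8 and 182 in WT and 116 and 103 in OPNKO (-0.30, limma adjusted p = 0.625). Among 19 genes of plasma cells and antibody secretion, 5 fell and 1 rose, with a median of -0.27. The joining chain Jchain fell by 2.92 on the log2 scale, the B cell chaperone gene Mzb1 by 1.66, Pou2af1 by 0.94 and the transcription factor gene Irf4 by 0.72. Txndc5, a disulfide isomerase of the endoplasmic reticulum, fell by 0.30, while Slamf7, a surface receptor, rose by 0.63. Their summed level was 57355 and 57035 in WT and 53185 and 49685 in OPNKO, with none at 0. Edem1, at 14027 and 13896 in WT against 16078 and 15094 in OPNKO, and Xbp1 made up much of the sum. It thus says little of the listed genes at lower levels. Xbp1, a transcription factor gene of the secretory pathway that many cell types use, had 12787 and 12504 in WT and 12310.2 and 12655 in OPNKO (-0.02, limma adjusted p = 0.897).

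Of 18 B cell genes tested, 1 fell (Cd72, -0.83) and 1 rose (Cd22, 0.36), and the median was -0.18. Over all genes tested, 1.98% were called lower and 2.33% higher. The B cell receptor component Cd79a had 284 and 357 in WT and 245 and 239 in OPNKO (-0.39, limma adjusted p = 0.215). Ms4a1, which encodes CD20, had 203 and 285 in WT and 235 and 154 in OPNKO (-0.33, limma adjusted p = 0.499). The summed level of the 18 was 16917 and 17620 in WT and 19905 and 18274 in OPNKO, with none at 0. Cd22 made up much of it, at 8249 and 8170 in WT against 10845 and 10242 in OPNKO. Without the 3 genes of highest level (Cd22, Btk and Blnk), a choice made after seeing the values, the other 15 summed to 2313 and 2885 in WT against 2252 and 1819 in OPNKO. The log2 fold change was negative for 12 of the 18. Of the 3 octamer-binding factors and coactivator, which act on variable-segment promoters, the coactivator Pou2af1 fell (-0.94) and Pou2f1 (0.27) and Pou2f2 (-0.02) did not pass. Of 15 genes listed for kappa recombination and light chain assembly, 3 rose and 0 fell, with a median of 0.24. The 3 were Rag1 (2.79), Rag2 (2.52) and Dntt (2.62), which are not particular to kappa. Vpreb1 (-0.22) and Vpreb3 (-0.80), at 1.14 to 10.7 normalized reads, did not pass. Which cells carried these transcripts was not tested. Of 8 T cell markers, 5 rose, among them Cd8a (2.34), and none was at 0. Their summed level was 2049 and 2530 in WT against 5179 and 8338 in OPNKO.

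Every alveolar macrophage marker on the list was detected in the sorted cells. Siglecf had 8521 and 6374 in WT and 8057 and 8876 in OPNKO, and Itgax 83043 and 76150.3 in WT and 94273 and 91167 in OPNKO. Chil3, a secreted lectin gene with the highest level on the same list, had 634850 and 643790 in WT against 311109 and 411474 in OPNKO (-0.84, limma adjusted p = 0.0528). The 8 alveolar macrophage markers summed to 785977 and 786311 in WT against 468340 and 571818 in OPNKO. Chil3 made up most of this sum, and the median log2 fold change of the 8 was 0.09. Of the 8, Car4 (-0.68) fell and Pparg (0.41) rose, beside 1.98% lower and 2.33% higher over all genes tested, and none was at 0. The WT libraries differed in markers of other lung cells. The 6 fibroblast markers summed to 884 in WT replicate 1, 5105 in WT replicate 2 and 704 and 431 in OPNKO, and the 5 endothelial markers to 490.3, 1731, 670.1 and 556 in the same order. None of these 11 genes passed the test or was at 0. The Igkv sum was 10799.7 in that library and 8739 in WT replicate 1, and 49 of 77 segments were higher there. Without WT replicate 2 the summed log2 ratio was -2.29. The part that antibody-secreting cells, B cells or stromal cells in the sort play in these differences was not tested.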

How the data were processed

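Per the labels' protocols, stranded mRNA libraries of sorted alveolar macrophages were pooled and sequenced on one lane. The authors deposited, per the file headers, normalized values for each library (a signal). In the values themselves these are read counts over a size factor. The deposited table also gives the authors' log2 fold change with its SE, their test score and the raw and adjusted p-value, of which only the adjusted p-value and the sign of the fold change were used. The submitters' processing notes name edgeR, HTSeq (0.6.1p1), STAR (2.4.1d) and Trim Galore (0.4.0). No build, annotation or strand setting is given in the sources used here, so overlap with antisense transcripts is uncertain. Another 2 unlabelled columns were not used. Whole reads were recovered for 100% of values (tolerance 0.001 reads).

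The whole table was fitted with limma 3.58.1 (trend option, under R 4.3.3) after adding 1 and taking log2, as OPNKO minus WT. Genes entered at a mean of 1 or more, with Benjamini-Hochberg adjustment over all 16431 genes. Fold changes on this scale understate the change of low genes. Calls used an adjusted p under 0.05. Sums, shares and numbers of segments were computed from all 77 rows without a test. Alternatives were 3 other scalings, filters, pseudocounts, each library left out, the replicate number as a block, and edgeR 4.0.16 and DESeq2 1.42.0 on recovered reads. Identity and unique stretches came from GENCODE M21 transcripts with Biopython 1.88, and tables and figures were made with Python 3.11.15, pandas 2.3.3 and matplotlib 3.10.9.

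Members and gene lists were chosen with earlier results of these data known. Named segments were the 10 with the highest mean, the 8 greatest called changes, those with 0 reads in one group and at least 20 in the other, up to 6 with a positive change (none had one), and the 4 of the 30 highest with the greatest ratio between WT libraries. List genes were up to 6 called members per list. Other genes and segments named, such as Igkv1-88, Igkv1-133, Igkv2-137, Igkv3-7, Igkv4-57, Igkv5-43, Igkv5-45, Igkv8-27, Ighm, Xbp1, Chil3, Cd79a and Ms4a1, were chosen after their values were seen.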

Additional observations from a re-analysis of the deposited data

How the results depend on the processing

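The number of segments called lower was 43. It stayed between 37 and 48 under the other scalings, pseudocounts, the higher filter, edgeR and DESeq2. With no filter limma called 0 (56 lower at an unadjusted p under 0.05; 1 of all 16755 genes was called lower), where edgeR and DESeq2 with their own filters called 41 and 48, and at an adjusted p under 0.01 it called 18. Leaving out 1 library gave 0 to 44 with limma and 6 to 50 with edgeR (20 without OPNKO replicate 1), the latter added after seeing the data. Such fits take the spread of the single library from the group with both. No alternative called a segment higher, though filters that the WT libraries alone can meet limit what this shows. The samples share only a replicate number (correlation of same-numbered deviations across genes -0.02), and with the replicate block 60 segments were lower, while over all genes the block took lower calls from 326 to 691 and higher calls from 383 to 875. The log2 ratio of the summed level was -2.45, with -2.59 to -2.29 when 1 library was left out and -2.41 without Igkv10-96. The log2 ratio of the effective number of segments was -0.83, with -0.88 to -0.78 when 1 library was left out. It was -1.22 for the inverse Simpson index and -0.17 for the expected number of segments at the common read number, which are other quantities. Among the named segments no direction reversed under any alternative. Of the 14 named segments that were called, none was called by limma without WT replicate 1 or without WT replicate 2. Low reads in OPNKO limit single segments, and the number of libraries limits every test. The cause of the lost calls was not tested.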
